A study of Homo sapiens with 6 samples.

Results

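The SWI/SNF complexes of the cell differ in a small set of subunits that decide which variant a complex is, and the hairpins against 10 such subunits were followed through an azacitidine screen. The genes were chosen by symbol and by what their products are known to do, with earlier results of these data at hand. ARID1A, ARID1B, DPF1, DPF2 and DPF3 stood for the BAF variant, ARID2, PBRM1, BRD7 and PHF10 for the PBAF variant, and BRD9 for the non-canonical BAF variant. They made up 10 of the 912 genes and 80 of the 7293 hairpins seen in the pool, with 8 hairpins per gene. The screen used SKK-1, an established human line from acute myeloid leukemia that arose from a myelodysplastic syndrome, transduced with lentiviruses that express short hairpin RNAs (shRNAs, here hairpins) against chromatin regulators, and selected with puromycin. The AZA group were cells given 0.25 µM azacitidine (AZA), a cytidine analogue built into RNA and DNA, every 2 days. The untreated group were cells of the same transduced cultures kept without the drug. Both were harvested at 14 days, and each group had 3 libraries of hairpins amplified from genomic DNA, where AZA replicate 1 and untreated replicate 1 came from 1 culture and likewise for 2 and 3. A higher share of a library's counts under AZA was read as a larger share of the cells at harvest carrying the hairpin. No library of the starting pool was analysed here, the loss of each transcript was not measured, and DNA counts hold no marker expression with which to check the cell line.

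SWI/SNF complexes use the energy of ATP to slide or evict nucleosomes, and so open promoters and enhancers. All variants share an ATPase motor and a common core. BAF carries ARID1A or ARID1B together with a DPF protein and acts mainly at enhancers, PBAF carries ARID2 with PBRM1, BRD7 and PHF10 and is found mainly at promoters, and non-canonical BAF lacks any ARID subunit and carries BRD9. BRD9 is known as a dependency of many acute myeloid leukemia cells.

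The guide strands of BRD9 and ARID2 are shown first because the gene results below turn on them. The guide is the strand that pairs with the transcript, written 5′ to 3′, and the capitals mark its seed (bases 2 to 8). The number in a hairpin's name is its label in the pool.
BRD9.462: tTTATTATcattgaatatccag
BRD9.502: tACAATTTtgtctttcatggtg
BRD9.534: tTAAATTCcgtaactgacttgt
BRD9.645: tTGCTCATcatcttaaagcctg
BRD9.1066: tTTGTTTCttctctcgtctttg
BRD9.1113: tTATTCTGcatcgaaagcgcag
BRD9.1120: tACTGAATtattctgcatcgaa
BRD9.1319: tTCTTCTCtgcttcagctggaa
ARID2.2216: tTCTGAACaacagaactctgtg
ARID2.2523: tATGATAAcagtatcttgtgac
ARID2.3102: tTGAACTTgcatctgtacttgt
ARID2.3108: tTGAGGTTgaacttgcatctgt
ARID2.3950: tTACTGATtagtgagcactgat
ARID2.5122: tAGAAGACttctgacttcctgc
ARID2.5758: tATCAGATctgaaacatcctgc
ARID2.8336: tAATATATagtcacaatcctga
All 8 BRD9 sites lay in coding sequence of the minus strand of chromosome 5, among them BRD9.462 in exon 5 at chr5:889094-889115, BRD9.1113 in exon 11 at chr5:878442-878463 and BRD9.1120 in exon 11 at chr5:878435-878456 (GRCh38, GENCODE release 44). BRD9.1113 and BRD9.1120 shared 15 bases of target and had different seeds. BRD9.1066 and BRD9.1113 also matched transcripts of BRD9P2 and ZDHHC11B along their whole length, and the other 6 matched BRD9 alone. Of the ARID2 sites, 6 lay in coding sequence and 2 in the 3′ UTR. ARID2.2523 paired with exon 15 at chr12:45850646-45850667 and ARID2.8336 with the 3′ UTR in exon 21 at chr12:45907906-45907927. ARID2.3102 and ARID2.3108 shared 16 bases of target.

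A second set shows guides that separate the hairpins of 1 gene, BRD7.1174 and BRD7.2253, and the DPF1 guides against its 3′ UTR.
BRD7.1174: tTTTCTTCtttcaaattcgcac
BRD7.2253: tAATACAAgtccaacctctgga
DPF1.1315: tTTAGAAAaaggctctgtccat
DPF1.1318: tTCTTTAGaaaaaggctctgtc
DPF1.1366: tAACTTCTtttcttttcttctt
DPF1.1379: tCTTTGTAtatattaacttctt
BRD7.2253 paired with the 3′ UTR at chr16:50319059-50319080 and was the only BRD7 guide without a match to a BRD7 pseudogene, since the other 7 guides matched BRD7P2 as well. DPF1.1315 and DPF1.1318 shared 19 bases of target, and DPF1.1366 and DPF1.1379 shared 9. In all, guides of 63 of the 80 hairpins and of 8 genes were used, and those of PBRM1 and PHF10 were not used here. All 63 guides matched the intended gene, 48 in coding sequence and 15 in a 3′ UTR, and no seed occurred in more than 1 of them.

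The libraries held 18542022 to 22587662 counts under AZA and 12292575 to 19645459 counts without drug. CPM below are counts scaled to equal library totals, and overlap of groups was read from them unless stated otherwise. The edgeR fold changes also used TMM factors (a further scaling per library). For hairpins these factors were 1.06 under AZA and 0.923 to 0.967 without drug, so a fold change can differ from the ratio of the CPM beside it. Hairpins against the 10 genes took 1.24%, 1.27% and 1.29% of the counts in AZA replicates 1, 2 and 3, against 1.04%, 1.17% and 1.07% in untreated replicates 1, 2 and 3. Counts were spread more evenly over the pool under AZA, with a Gini coefficient (0 when all hairpins are equally common) of 0.400 to 0.407, against 0.484 to 0.513 without drug. Of the 80 hairpins, 1 fell under 50 counts in an AZA library and 14 in an untreated library, and 4 were at 0 in an untreated library, which allows up to 0.153 to 0.244 CPM for counting error alone. This evenness moved with the group in every comparison below, and its part in the results was not tested.

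Hairpins against BRD9 and ARID2 were more abundant under AZA, and no other gene of the 10 passed the test in either direction. Counts of the 8 hairpins were summed per gene and tested over all 912 genes with edgeR's quasi-likelihood test, which called 11 genes or 1.21% of the pool, 9 of them higher (0.987%) and 2 lower (0.219%). BRD9 rose 1.81-fold and ARID2 1.79-fold. At an unadjusted p under 0.05, 3 of the 10 genes were higher and 0 lower, against 5.37% and 6.25% of all genes. Because the 10 genes were chosen with earlier results of these data known, such shares are a description and carry no test. On library totals the AZA and untreated libraries did not overlap for 3 genes, each higher under AZA (BRD9, ARID2 and PBRM1), where 10.9% of all genes were higher and 7.68% lower without overlap. The PBRM1 gap was narrow, at 1209 CPM in AZA replicate 3 against 1170 CPM in untreated replicate 2. Overlap of single genes under TMM scaling was not examined. In order of fold change BRD9 and ARID2 came first, then BRD7, PBRM1, ARID1A, DPF3, PHF10, ARID1B, DPF2 and DPF1, and each neighbouring pair in that order differed by less than the SE of both genes except BRD7 and ARID2, BRD7 and PBRM1, and PBRM1 and ARID1A. Differences between the genes themselves were not tested. The fold change was above 0 for 6 of the 10 genes and 48.7% of all genes. By mean CPM on library totals, 4 of the 10 (BRD9, ARID2, BRD7 and PBRM1) had 6 or more hairpins higher under AZA, as did 22.5% of all genes. By the fold change of the hairpin fit, 7 of 8 hairpins were positive for each of BRD9, ARID2 and BRD7, but only 5 of 8 for PBRM1.

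**Figure D1:**
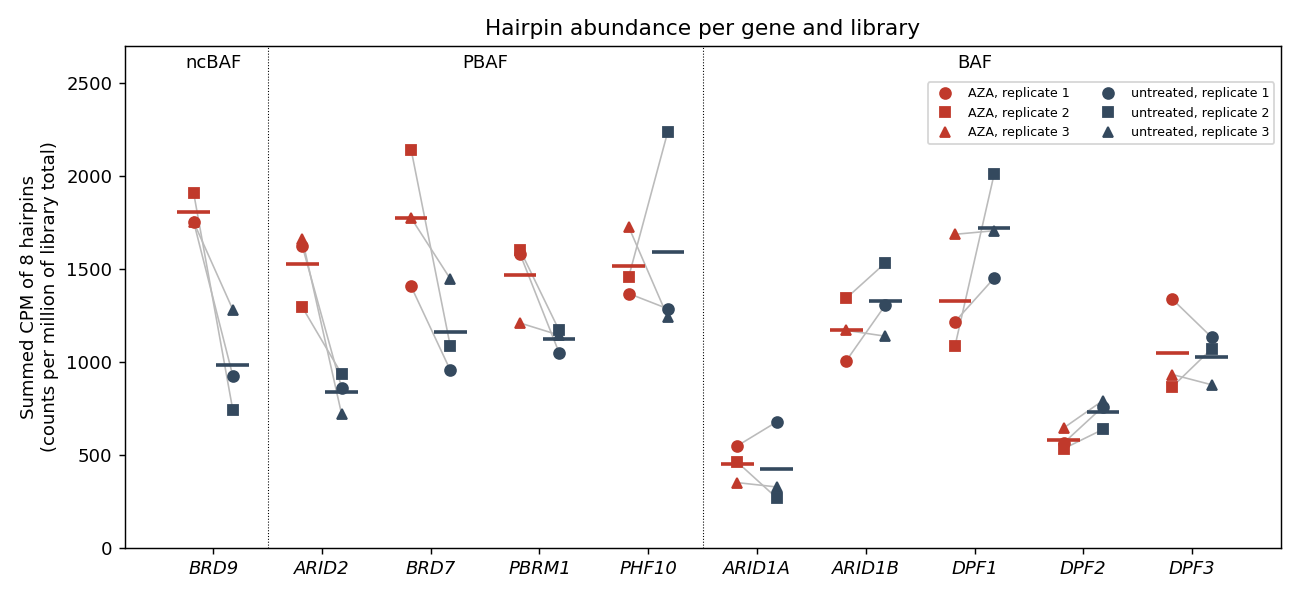
Summed CPM of the 8 hairpins per gene (y axis, from 0), AZA libraries left and untreated libraries right within each gene, with bars for the group means and grey lines joining libraries of 1 culture. BRD9, ARID2 and PBRM1 are the genes whose 3 AZA libraries all lie above the 3 untreated libraries.

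BRD9, the bromodomain subunit that defines non-canonical BAF, had summed hairpins at 1754, 1910 and 1753 CPM in AZA replicates 1, 2 and 3, against 925, 742 and 1281 CPM in untreated replicates 1, 2 and 3. The AZA libraries lay close together and all above the untreated ones, among which replicate 3 was highest. Within cultures 1, 2 and 3 the AZA value was 1.90, 2.57 and 1.37 times the untreated value. The group means were 1806 ± 90.4 CPM under AZA and 983 ± 274 CPM without drug (SD, n = 3 each), and the log2 fold change was 0.86 ± 0.19 SE (edgeR adjusted p = 0.0292). By mean CPM it ranked 1 of the 10 genes under AZA and 7 without drug. The call was lost without the most abundant hairpin of each gene (0.69, edgeR adjusted p = 0.138) and when the mean log2 CPM of the hairpins was tested with limma (1.01, adjusted p = 0.111), over alternatives of which the others gave 0.0316 or less. In the limma fit the median of all genes was 0.25. The call was also lost without AZA replicate 1 (0.0635), 2 (0.184) or 3 (0.159) or untreated replicate 2 (0.0772).

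Among single hairpins BRD9.1120 stood out. It had 313, 219 and 251 CPM in AZA replicates 1, 2 and 3, against 48.0, 44.0 and 39.7 CPM in the untreated replicates. All 3 AZA values were several times any untreated value. Its log2 fold change was 2.41 ± 0.53 SE with an unadjusted p of 0.000751, and over all 7262 tested hairpins it did not pass (edgeR adjusted p = 0.507). BRD9.1113, whose target overlaps it, gave 0.24 ± 0.65 SE, at 160, 92.5 and 96.5 CPM under AZA and 64.8, 102 and 95.2 CPM without drug.

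The other BRD9 hairpins varied in level and in direction. BRD9.462, the most abundant, had 566, 662 and 551 CPM under AZA and 218, 114 and 484 CPM without drug, and gave 0.96 ± 0.45 SE (edgeR adjusted p = 0.895). BRD9.534 was at 110, 110 and 104 CPM under AZA, against 72.2, 55.9 and 38.5 CPM without drug (0.80 ± 0.73 SE). In both the groups did not overlap. BRD9.645 (0.97 ± 0.75 SE), BRD9.1319 (0.70 ± 0.68 SE) and BRD9.502 (0.66 ± 0.83 SE) had positive fold changes with overlapping groups, the last ranging over 11.4, 250 and 83.8 CPM in the untreated libraries, against 150, 212 and 260 CPM under AZA. BRD9.1066 was the only one with a negative value (-0.35 ± 0.51 SE), and it and BRD9.1113, the lowest pair by fold change, were the 2 that matched other genes. Without BRD9.1120 the remaining 7 hairpins summed to 1441, 1691 and 1501 CPM under AZA and 877, 698 and 1242 CPM without drug, still without overlap.

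**Figure D2:**
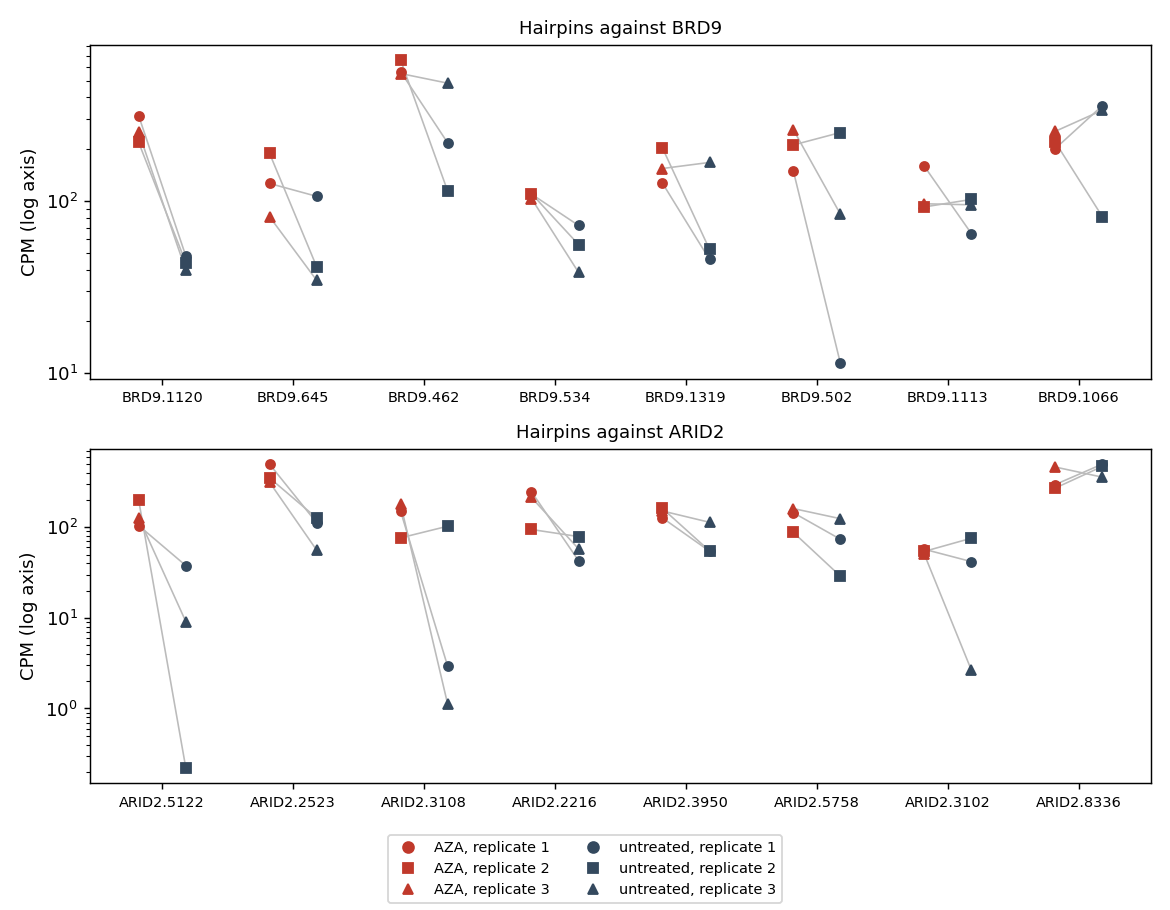
CPM on a log axis of each hairpin against BRD9 (top) and ARID2 (bottom), ordered by log2 fold change from the highest, AZA libraries left and untreated libraries right, with grey lines joining libraries of 1 culture. BRD9.1120 lies at 219 to 313 CPM under AZA and 39.7 to 48.0 CPM without drug, and ARID2.8336 is the 1 ARID2 hairpin with a negative fold change.

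ARID2, the DNA-binding subunit that defines PBAF, had 1622, 1293 and 1659 CPM in AZA replicates 1, 2 and 3, against 862, 935 and 720 CPM in untreated replicates 1, 2 and 3. Every AZA library lay above every untreated one, and within cultures 1, 2 and 3 the AZA value was 1.88, 1.38 and 2.30 times the untreated value. The means were 1524 ± 201 CPM under AZA and 839 ± 109 CPM without drug (SD, n = 3 each), and the log2 fold change was 0.84 ± 0.20 SE (edgeR adjusted p = 0.0449). It lay close to the threshold, and the alternatives with all libraries gave 0.000247 to 0.0486. The call was lost without AZA replicate 1 (0.231), 2 (0.0779) or 3 (0.400) or untreated replicate 3 (0.0624).

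A single abundant hairpin went the other way in ARID2. ARID2.8336, against the 3′ UTR, had 295, 270 and 462 CPM under AZA and 497, 468 and 357 CPM without drug (-0.53 ± 0.32 SE, edgeR adjusted p = 0.963). It made up 52.5% of the gene's counts without drug and 22.5% under AZA. The other 7 hairpins, all with positive fold changes, summed to 1326, 1023 and 1197 CPM under AZA, against 365, 467 and 364 CPM without drug. Without the most abundant hairpin of each gene the ARID2 estimate was larger (1.49, edgeR adjusted p = 0.000572), and limma on the mean log2 CPM gave 1.79 (adjusted p = 0.0431), where the median of all genes was 0.25.

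ARID2.2523 was the hairpin of ARID2 with the smallest p, at 496, 350 and 313 CPM under AZA and 112, 126 and 55.7 CPM without drug (1.81 ± 0.45 SE, edgeR adjusted p = 0.643). ARID2.5122 had 104, 199 and 128 CPM under AZA and 37.7, 0.222 and 9.11 CPM without drug (3.06 ± 1.30 SE), the untreated replicate 2 value resting on 4 counts. In ARID2.2216 the values were 246, 94.4 and 213 CPM under AZA and 42.7, 78.8 and 57.7 CPM without drug (1.46 ± 0.65 SE). These 3, and ARID2.3950 with 127, 161 and 151 CPM under AZA against 54.4, 54.8 and 113 CPM without drug (0.82 ± 0.64 SE), had groups that did not overlap.

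The pair with overlapping targets diverged between libraries. ARID2.3108 had 151, 76.3 and 182 CPM under AZA but 2.93, 103 and 1.12 CPM without drug (1.74 ± 1.34 SE), so that untreated replicate 2 exceeded AZA replicate 2. ARID2.3102 had 57.1, 54.1 and 50.5 CPM under AZA and 41.7, 75.6 and 2.65 CPM without drug (0.26 ± 1.20 SE). ARID2.5758, against the 3′ UTR, was higher under AZA in 3 of 3 cultures with overlapping groups (0.64 ± 0.72 SE).

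BRD7, the bromodomain subunit of PBAF, had 1406, 2141 and 1774 CPM in AZA replicates 1, 2 and 3, against 955, 1085 and 1446 CPM in untreated replicates 1, 2 and 3. Each AZA value exceeded that of its own culture, although AZA replicate 1 was below untreated replicate 3. The log2 fold change was 0.59 ± 0.20 SE with an unadjusted p of 0.00768, and BRD7 did not pass (edgeR adjusted p = 0.184). The DESeq2 Wald test called it (0.58, adjusted p = 0.0352), where the adjusted p over the other alternatives with all libraries reached 0.384. By fold change 7 of its 8 hairpins were positive, led by BRD7.1174 with 265, 282 and 450 CPM under AZA and 176, 174 and 126 CPM without drug (0.90 ± 0.40 SE, edgeR adjusted p = 0.860). The exception was BRD7.2253, the guide against the 3′ UTR, which had 74.5, 118 and 59.5 CPM under AZA and 163, 139 and 192 CPM without drug (-1.13 ± 0.59 SE, edgeR adjusted p = 0.898). It was the 1 hairpin of the 80 whose AZA libraries all lay below the untreated ones.

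PBRM1, the subunit of PBAF with an array of bromodomains that bind acetylated histones, had 1583, 1604 and 1209 CPM in the AZA replicates, against 1049, 1170 and 1144 CPM in the untreated replicates. The groups did not overlap, but AZA replicate 3 was 1.06 times its untreated culture. The log2 fold change was 0.36 ± 0.18 SE (edgeR adjusted p = 0.407), and 0.95 ± 0.41 SE with limma on the mean log2 CPM (adjusted p = 0.333), where the median of all genes was 0.25. PBRM1.2588 had 328, 487 and 358 CPM under AZA and 286, 196 and 292 CPM without drug (0.44 ± 0.34 SE), PBRM1.3518 was scarcer and gave 1.33 ± 1.24 SE, and PBRM1.686 was at 0 in untreated replicate 3 and at 33.4, 42.0 and 20.2 CPM under AZA, against 36.5 and 29.5 CPM in the other untreated libraries.

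PHF10, the PHD-finger protein that takes the DPF place in PBAF, differed from the other PBAF genes in having a gene estimate below 0. Its values were 1368, 1457 and 1727 CPM under AZA and 1285, 2239 and 1240 CPM without drug, with a log2 fold change of -0.09 ± 0.21 SE (edgeR adjusted p = 0.887). The highest value was that of untreated replicate 2, where PHF10.855 reached 413 CPM against 46.0 and 73.7 CPM in untreated replicates 1 and 3 (87.7, 58.1 and 84.6 CPM under AZA) and PHF10.590 reached 887 CPM against 307 and 300 CPM (290, 473 and 299 CPM under AZA). Without that library the PHF10 estimate turned to 0.25 (edgeR adjusted p = 0.587).

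**Figure D3:**
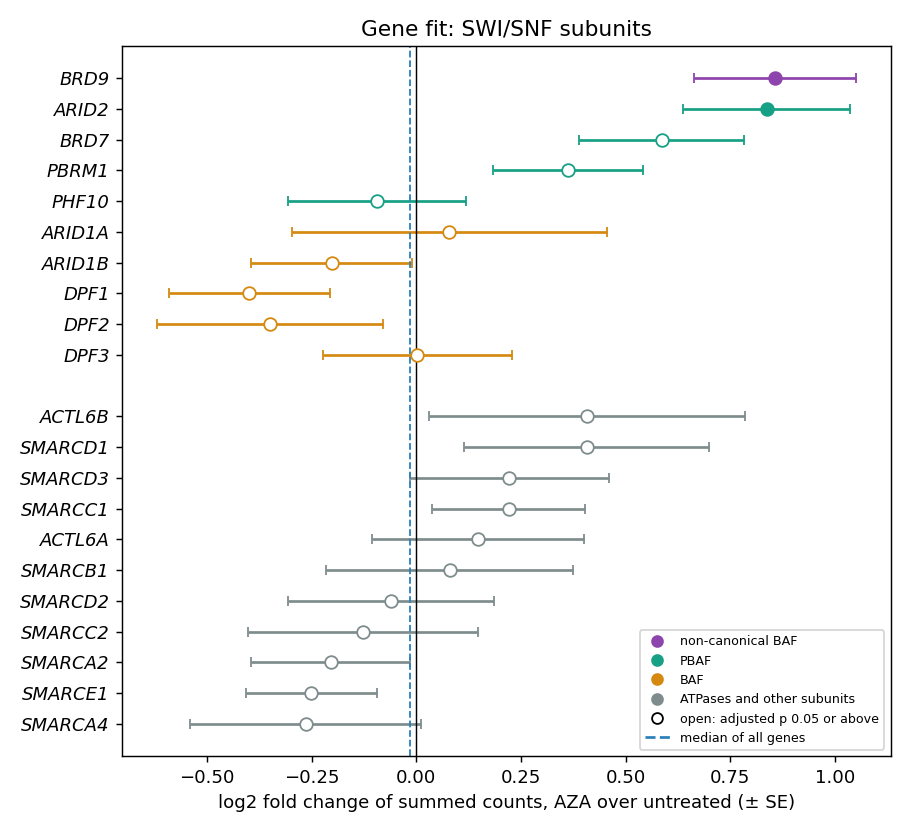
Log2 fold change of summed counts, AZA over untreated (x axis, bars ± SE), for the 10 variant-defining genes (top, by variant) and 11 other subunits (bottom), filled where the edgeR adjusted p was under 0.05. BRD9 (0.86) and ARID2 (0.84) are the filled points, and the dashed line is the median of all genes (-0.01).

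For the BAF genes no change passed the test. ARID1A, the DNA-binding BAF subunit often mutated in cancer, had the scarcest hairpins of the 10 genes, at 548, 460 and 350 CPM under AZA and 677, 268 and 327 CPM without drug (0.08 ± 0.38 SE, edgeR adjusted p = 0.944). Its 8 hairpins split evenly, with fold changes from -2.09 for ARID1A.2176 to 2.49 on the log2 scale, and their values scattered over the untreated libraries. Limma on the mean log2 CPM of the hairpins, which weights scarce and abundant hairpins alike, gave 1.41 ± 0.57 SE for ARID1A (adjusted p = 0.311), beside a median of 0.25 over all genes in that fit. ARID1A.2176, for example, had 13.8, 2.17 and 20.7 CPM under AZA and 13.3, 121 and 3.16 CPM without drug. ARID1A.2293 was at 0 in untreated replicate 2 and ARID1A.3531 at 0 in untreated replicate 1. ARID1A.3306 was the only one without overlap, at 86.2, 62.6 and 43.0 CPM under AZA and 21.7, 28.4 and 4.78 CPM without drug (1.64 ± 1.18 SE, edgeR adjusted p = 0.991).

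ARID1B, which takes the place of ARID1A in other BAF complexes, had 1005, 1342 and 1169 CPM under AZA and 1306, 1532 and 1138 CPM without drug (-0.20 ± 0.19 SE, edgeR adjusted p = 0.736). The groups overlapped, with lower values under AZA in 2 of 3 cultures. ARID1B.7882, its most abundant hairpin without drug, had 246, 209 and 138 CPM under AZA and 393, 544 and 196 CPM without drug (-1.10 ± 0.44 SE, edgeR adjusted p = 0.805), and ARID1B.9312 was also below its culture 3 of 3 times (-1.07 ± 0.64 SE).

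DPF1, DPF2 and DPF3 encode alternative PHD-finger subunits of BAF, DPF1 being known from neurons and DPF3 from heart and skeletal muscle, whereas DPF2 is widely expressed. DPF1 had 1216, 1085 and 1686 CPM under AZA and 1451, 2010 and 1706 CPM without drug. It was lower under AZA in 3 of 3 cultures, but by a factor of only 0.989 in culture 3, and had the lowest log2 fold change of the 10 genes (-0.40 ± 0.19 SE, unadjusted p = 0.0530, edgeR adjusted p = 0.407). DPF1.1379 alone made up 31.4% of the gene's counts under AZA and 39.2% without drug, at 443, 313 and 496 CPM under AZA and 489, 760 and 776 CPM without drug (-0.86 ± 0.30 SE, edgeR adjusted p = 0.751). DPF1.1318 had 93.8, 120 and 209 CPM under AZA and 295, 524 and 116 CPM without drug (-1.32 ± 0.56 SE), whereas DPF1.1315, which shares most of its target, gave -0.36 ± 0.72 SE. All 4 hairpins against the DPF1 3′ UTR had negative fold changes, and the 4 against its coding sequence were split, 2 positive and 2 negative. Of the coding-sequence hairpins, DPF1.108, which also matched DPF3, was at 0 in untreated replicate 1 and at 1.61 and 140 CPM in the other untreated libraries, against 10.7, 26.5 and 262 CPM under AZA.

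DPF2 was also lower in 3 of 3 cultures, at 564, 533 and 644 CPM under AZA and 758, 636 and 792 CPM without drug, with overlapping groups (-0.35 ± 0.27 SE, edgeR adjusted p = 0.621). Such a pattern held for 2 of the 10 genes and 15.8% of all genes, and the reverse, higher in 3 of 3 cultures, for 4 of the 10 genes (BRD9, ARID2, BRD7 and PBRM1) and 20% of all genes. DPF2.1599 had 10.0, 33.9 and 38.4 CPM under AZA and 31.2, 131 and 163 CPM without drug (-2.16 ± 0.96 SE, edgeR adjusted p = 0.868) and DPF2.1254 had 119, 151 and 114 CPM under AZA and 352, 211 and 148 CPM without drug (-1.04 ± 0.48 SE). DPF3 was closest to no change, at 1336, 867 and 932 CPM under AZA and 1132, 1070 and 877 CPM without drug (0.00 ± 0.23 SE, edgeR adjusted p = 0.996), with DPF3.771 at -1.13 ± 0.60 SE and DPF3.961 at -0.51 ± 0.76 SE.

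**Figure D4:**
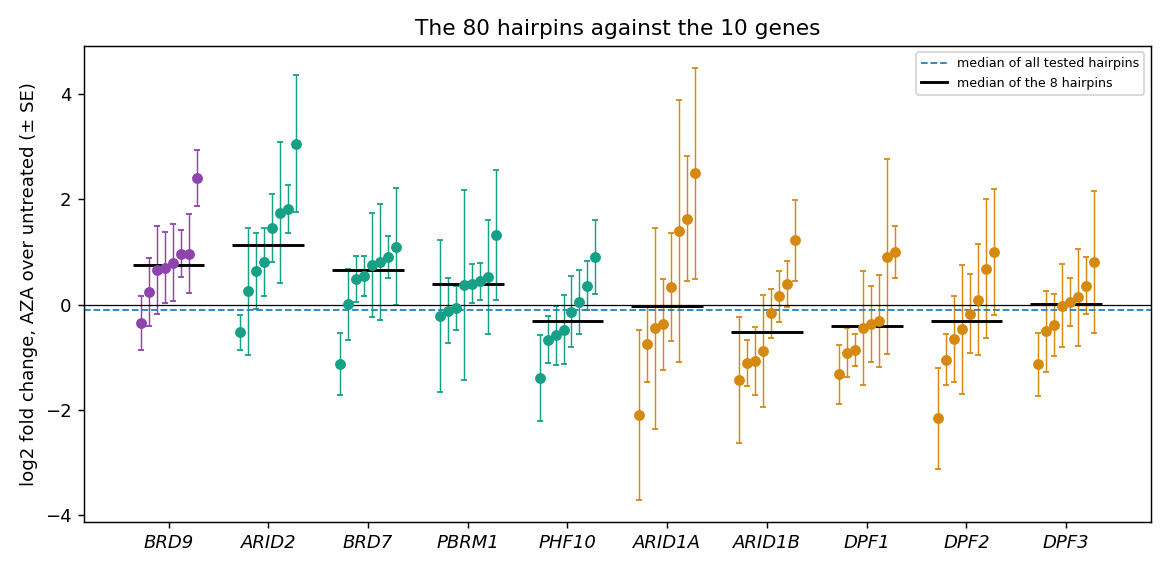
Log2 fold change, AZA over untreated (y axis, bars ± SE), of each of the 80 hairpins, grouped by gene with BRD9 first, then PBAF and BAF genes, black bars marking the median of 8 hairpins and the dashed line that of all tested hairpins (-0.10). BRD9.1120 (2.41) is the top BRD9 point, and the widest error bars are in ARID1A.

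Across the 80 hairpins 0 passed the test, where 5 of 7262 hairpins of the pool did (0.0689%; 0.0138% higher and 0.0551% lower) in edgeR's quasi-likelihood test. At an unadjusted p under 0.05 there were 5 higher (6.25% of the 80, against 1.9% of the pool) and 4 lower (5% of the 80, against 3.72% of the pool). The 5 were BRD9.1120, ARID2.2523, ARID2.5122, BRD7.1174 and ARID2.2216, and the 4 were DPF1.1379, ARID1B.7882, DPF1.1318 and DPF2.1599. They came from few genes, with 3 of the 5 against ARID2 and 2 of the 4 against DPF1. PBRM1, PHF10, ARID1A and DPF3 had none in either direction. The edgeR exact test called BRD9.1120 (adjusted p = 0.0436), and the DESeq2 Wald test called BRD9.1120 (adjusted p = 3.7e-05) and ARID2.2523 (adjusted p = 0.00293). The AZA libraries lay wholly above the untreated ones for 15 of the 80 hairpins and wholly below for 1, where 9.13% and 4.29% of all hairpins did so. Hairpins were higher under AZA in 3 of 3 cultures for 23 of 80 (18.9% of the pool) and lower for 10 of 80 (10.7% of the pool).

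By variant, the summed hairpins of the 5 BAF genes had 4669, 4286 and 4782 CPM under AZA and 5323, 5517 and 4838 CPM without drug, a ratio of means of 0.876. The 4 PBAF genes had 5978, 6495 and 6368 CPM under AZA and 4152, 5430 and 4551 CPM without drug, a ratio of 1.33. On library totals neither pair of groups overlapped, though AZA replicate 3 and untreated replicate 3 of BAF were nearly level. The genes of a variant did not move alike. Mean CPM was higher under AZA for 2 of the 5 BAF genes and 3 of the 4 PBAF genes. The largest differences were those of DPF1 in BAF (1329 CPM under AZA, 1722 without drug) and of ARID2 (1524 against 839) and BRD7 (1774 against 1162) in PBAF. Of the 40 BAF hairpins 16 had a fold change above 0, of the 32 PBAF hairpins 22 and of the 8 BRD9 hairpins 7, against 45.1% of all tested hairpins, and the medians were -0.34, 0.42 and 0.75 on the log2 scale, against -0.10 over all hairpins. On mean CPM scaled by library totals the counts were 17, 25 and 7, against 53.8% of all hairpins. With the replicate block the medians were -0.15, 0.71 and 1.01, against 0.08 over all hairpins. The class sums were described without a test. Scaling them by the TMM factors of the hairpins gave log2 ratios of -0.36 for BAF and 0.25 for PBAF, against -0.19 and 0.41 on library totals, and the PBAF groups then overlapped, with AZA replicate 1 at 5647 CPM below untreated replicate 2 at 5882 CPM. The TMM factors of the gene sums, an alternative added after seeing the data, gave -0.21 for BAF and 0.39 for PBAF, with no overlap in either.

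The place of the target site and the base composition of the guide were set beside these values for the 63 hairpins whose guide was used. Of 48 hairpins against coding sequence 31 had a fold change above 0 (median 0.60 on the log2 scale), and of 15 against a 3′ UTR 5 did (median -0.53). The sites are not spread evenly over the genes, and BRD9 and ARID1A had no 3′ UTR hairpin. Within genes that had both, fold changes above 0 were found for 6 of 6 coding and 1 of 2 3′ UTR hairpins of ARID2, 7 of 7 and 0 of 1 of BRD7, 2 of 4 and 0 of 4 of DPF1, 2 of 5 and 1 of 3 of ARID1B, 2 of 6 and 1 of 2 of DPF2, and 1 of 4 and 2 of 3 of DPF3. GC content ran from 18.2% to 54.5% with a median of 40.9%. Hairpins of low GC content were the more abundant ones, with a Spearman rho between GC content and mean CPM of -0.56 under AZA and -0.44 without drug, whereas rho between GC content and log2 fold change was -0.01 (63 hairpins that share libraries and PCR). Among the most abundant hairpins of each gene over all 6 libraries were DPF1.1379 (18.2% GC), BRD9.462 (22.7%) and ARID2.8336 (27.3%), but also DPF2.1254 (45.5%).

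For the ATPases and other subunits of the complex, 11 genes of a list of 19 were in the pool with 88 hairpins, and 0 passed the test (edgeR adjusted p 0.541 to 0.932, 0 at an unadjusted p under 0.05). Of all genes 1.21% passed, and 5.37% were higher and 6.25% lower at an unadjusted p under 0.05. The log2 fold changes of the 11 genes ran from -0.26 to 0.41 with a median of 0.08, beside -0.01 over all genes and 0.04 over the 10 variant-defining genes. With limma on the mean log2 CPM of hairpins they ran from -0.15 to 1.55, where the median of all genes was 0.25. In that fit 0 passed as well (adjusted p 0.296 to 0.960), but some had an unadjusted p under 0.05, the smallest 0.0308. SMARCE1, a core subunit with an HMG domain, had the smallest p (-0.25 ± 0.16 SE) and was the 1 gene of the 11 without overlap, at 1679, 1429 and 1637 CPM under AZA and 2049, 1742 and 1773 CPM without drug. Of all genes 7.68% were lower and 10.9% higher without overlap. SMARCA2, one of the alternative ATPases, was at -0.20 ± 0.19 SE. On the other side SMARCD1 gave 0.41 ± 0.29 SE and SMARCC1, a scaffold of the core, 0.22 ± 0.18 SE.

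Over the 6 libraries the summed log2 CPM of BRD9 ran most like that of FTSJ3 (r = 0.98), PHF19 (0.98) and RFXAP (0.97) among 911 genes. Of the other variant-defining genes BRD7 (0.87) came closest, at place 36, before PBRM1 at 96 and ARID2 at 106, and DPF1 (-0.68) was farthest. These correlations are a description of 6 libraries that fall into the AZA and untreated groups, and carry no test.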

How the data were processed

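Raw hairpin counts were deposited by the authors, 1 file per library, from PCR of guide strands out of genomic DNA. CASAVA 1.9 and GRCh37 appear in the submitters' processing notes, and the matching of reads was not given in the sources used here. Without molecular identifiers PCR copies stay in the counts, so that floors cover counting error only. A hairpin absent from a file was set to 0 counts.

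Tests used edgeR 4.0.16 (R 4.3.3) with TMM factors and treatment as the only term. A hairpin was tested where 3 libraries or more exceeded 0.5 CPM (7262, with 31 removed), and gene counts were sums over all hairpins of a gene. P-values were adjusted by Benjamini-Hochberg over all hairpins or all genes, with a threshold of 0.05. Class sums were not tested: 3 against 3 libraries cannot give a permutation p under 0.1. Replicates were separately transduced cultures.

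Guides came from the library table of the study and were matched to GENCODE release 44 transcripts (GRCh38). Positions are those of the MANE transcript, in which 59 of 63 guides lay, the remaining 4, all against DPF3, matching other transcripts of that gene.

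The labels' protocol pairs libraries of 1 number, both taken from 1 culture. As a check, their deviations from group means correlated at 0.129, 0.115 and 0.144 for the same number and at -0.102 to -0.0222 otherwise (across 7293 hairpins, which are not independent). No 2 libraries of a group were alike within counting error (chi-square over its degrees of freedom 438 to 906).

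Alternatives were DESeq2 1.42.0 size factors and Wald test, library totals, other count filters, the replicate block, the edgeR exact test, robust dispersions, limma 3.58.1 on mean log2 CPM (prior count 2), leaving out each gene's most abundant hairpin, and leaving out each library. The edgeR fits were checked on simulated data.

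Named were all 10 genes, every hairpin of BRD9 and ARID2, the 2 hairpins of each gene with the smallest p, every hairpin with a 0, of 19 other subunits the 2 per direction with the smallest p, and the 3 genes most like BRD9. DPF1.1315, DPF1.1366, BRD9P2, ZDHHC11B and BRD7P2 lie outside this rule and were named after the values had been seen. The genes and lists were chosen with earlier results of these data known.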

Additional observations from a re-analysis of the deposited data

How the results depend on the processing

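Over 46 log2 fold changes (10 genes, 36 hairpins) the alternatives kept direction and side of the threshold 615 times, lost a call 10 times, gained one 4 times and turned the sign 24 times, in estimates that had not passed. Only BRD9 and ARID2 had passed, each with 15 alternatives, so every lost call could only be theirs. For the other estimates, staying uncalled was counted as keeping the side of the threshold. With the replicate block BRD9 (0.89, edgeR adjusted p = 0.0216) and ARID2 (0.84, 0.0486) were still called. The block changed no call among the 10 genes and turned DPF3 to -0.015 and ARID1A.2293 to 1.27. Leaving out 1 library gave 0 to 2 calls among the 10 genes, 0 among their hairpins, 5 to 16 among all genes and 1 to 5 among all hairpins. The edgeR exact test called 18 genes and 13 hairpins of the pool and the DESeq2 Wald test 53 and 135, against 11 and 5, and among the 80 hairpins 1 and 2, against 0. Limma on mean log2 CPM, or leaving out the most abundant hairpin, called 1 of the 10 genes. The PBAF log2 ratio was 0.25 with TMM-scaled CPM, where the groups overlapped. Library totals shifted the median of all hairpins to 0.07, against -0.10 with TMM, and limma on mean log2 CPM put that of all genes at 0.25, so that its values for DPF1 (0.13) and DPF2 (0.041), which turned positive, lie below that median. DPF3 was -0.0032 both with DESeq2 size factors and in its Wald test and -0.12 without the most abundant hairpin, where PHF10 was 0.0098. The cause of these turns was not tested.

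Without single libraries the estimate ranged from -0.17 to 0.58 for ARID1A, -0.21 to 0.12 for DPF3 and -0.25 to 0.25 for PHF10. For hairpins it ranged from -2.71 to 0.44 for ARID1A.2176, -0.92 to 0.058 for DPF3.961, -1.86 to 0.21 for PHF10.855, -0.94 to 0.078 for PHF10.590, -0.30 to 1.15 for ARID2.3102 and -0.057 to 0.39 for BRD9.1113. For hairpins with a 0 it ranged from -1.38 to 2.83 for ARID1A.2293, -0.20 to 5.78 for ARID1A.3531, -1.52 to 6.72 for DPF1.108 and -0.21 to 0.91 for PBRM1.686.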
